A study of Mus musculus with 9 samples.

Results

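The Msx and Lmx1 homeobox genes of the dorsal neural tube are described here in hindbrains of mouse embryos on embryonic day 9.5 that carried a mutant or a wild-type form of Zfp423. The members were chosen by symbol as the rows Msx1, Msx2, Msx3, Lmx1a and Lmx1b of the deposited read counts, and they are 5 of 48587 genes in the table. The data were RNA-sequencing libraries of total RNA, with 3 libraries for each of 3 genotypes. The d9-20 genotype had lost exon 4 of Zfp423, so that its protein lacked zinc fingers 9 to 20. The d28-30 genotype had lost exons 6 and 7, so that zinc fingers 28 to 30 were missing. The wild-type (wt) libraries were from littermates, and the labels do not say of which mutant line. All 9 libraries were of strain C57BL/6N and untreated, so background and age were shared by every group. The labels give no embryo, litter or pool for a library, so the p-values below measure only the spread between these samples, which may be technical.

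Msx and Lmx1 proteins are transcription factors that bind DNA through a homeodomain, and Lmx1 proteins also carry LIM domains that recruit cofactors. In the neural tube they are active in or beside the dorsal midline, though not only there. At this midline the roof plate forms and sends BMP and WNT signals to the neighbouring progenitors. Msx genes are induced by BMP signals, and Lmx1a is the gene mutated in the dreher mouse, which lacks a normal roof plate. Zfp423 encodes a zinc finger protein that interacts with SMAD proteins of the BMP pathway and with EBF factors, and loss of it in mice disturbs the midline of the cerebellum.

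Library totals lay between 16903382 and 24216412 counts, and 15695 genes, with all 5 members among them, had enough counts to be tested. One library, d28-30 replicate 2, differed most from the others, with a chi-square per degree of freedom of 27.3 to 64.3 against each other library, where no other pair was above 18.6. Summed Y-linked CPM (counts scaled to library size with TMM factors) were 0.0506 in d9-20 replicate 1 and 0.0589 in d28-30 replicate 1, against 63.7 to 205 in the wt libraries, so the sexes were not balanced between the genotypes. Hoxb1, a hindbrain gene, was at 15.4 to 20.7 CPM over all 9 libraries, and Otx2, which is known from the midbrain and forebrain, was at 65.1 to 89.3 CPM. Zfp423 had 155, 156 and 195 CPM in d9-20 and 159, 172 and 183 CPM in d28-30, against 101, 105 and 118 CPM in wt. It rose by a log2 fold change of 0.64 ± 0.10 (SE, adjusted p = 0.036) in d9-20 and of 0.67 ± 0.10 (SE, adjusted p = 0.0257) in d28-30, by edgeR's quasi-likelihood test. With single libraries left out, the d9-20 call remained only without d28-30 replicate 2 (adjusted p up to 0.249), and the d28-30 call only without d9-20 replicate 3 or d28-30 replicate 2 (adjusted p up to 0.173). Counts per gene do not show the deleted exons, so this level does not check the deletions.

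The members lie on 5 chromosomes of the GRCm38 build, with gene models from GENCODE M21. Msx1 (chr5:37820485-37824583, minus strand), Msx2 (chr13:53466884-53473074, minus strand) and Msx3 (chr7:140046157-140049089, minus strand) are compact genes of 2 exons each. Lmx1a (chr1:167689237-167848741, plus strand) and Lmx1b (chr2:33560965-33640511, minus strand) have 8 exons in their longest transcript. Bases before the start site are shown for Msx2 and Lmx1a, the members furthest below wt in d9-20, and for Msx1, the Msx member with the smallest difference from wt. The sequences and start sites are from RefSeq on GRCm38.p6, and capitals mark the homeodomain core TAAT or its reverse complement ATTA in the Msx2 and Lmx1a lines and the CCAAT box in the Msx1 line.
Msx2, chr13:53472944-53472973, minus strand, bases -193 to -164: ctcctgTAATTAactccTAATttatttcaa
Lmx1a, chr1:167689308-167689507, plus strand, bases -250 to -51: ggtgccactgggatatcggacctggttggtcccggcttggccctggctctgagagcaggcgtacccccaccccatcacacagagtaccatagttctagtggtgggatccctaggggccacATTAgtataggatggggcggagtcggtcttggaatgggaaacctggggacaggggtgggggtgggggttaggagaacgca
Msx1, chr5:37824636-37824835, minus strand, bases -250 to -51: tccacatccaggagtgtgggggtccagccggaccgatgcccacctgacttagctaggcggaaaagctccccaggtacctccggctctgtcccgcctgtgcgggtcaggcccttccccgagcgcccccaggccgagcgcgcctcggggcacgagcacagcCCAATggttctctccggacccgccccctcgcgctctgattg
The Msx2 stretch holds 3 matches to the homeodomain core, of which a pair overlap. It lies inside the gene in GENCODE, which places the start 294 bases further upstream. The Lmx1a bases lie inside the gene in GENCODE, which places the start 321 bases further upstream. Over bases -250 to -51, searched on both strands, Msx2 had 5 matches to TAAT, Lmx1a 1, and Msx1, Msx3 and Lmx1b none. Of 32851 RefSeq windows of the same length, 50.1% held at least 1 such match and 3.97% held at least 5. CCAAT was found in the windows of Msx1, Msx2, Msx3 and Lmx1b, against 28.4% of all windows. GCACCC, the half-site bound by Roaz, the rat form of ZFP423, was found once, in the Lmx1b window, and 10.9% of all windows held it. RefSeq starts Lmx1b further upstream than GENCODE does, and most of that window lies in the opposite-strand gene C130021I20Rik. The GC content was 69.5% for the Msx1 window, 56.5% for Msx2 and 61% for Lmx1a, with a median of 51.5% over all windows. These matches describe the letters only.

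Across the family, Msx2 was lower in both mutants than in wt, and by edgeR's quasi-likelihood test no other member passed the threshold in either comparison. DESeq2 called 2 of 5 members in each, Msx2 and Lmx1a in d9-20 and Msx2 and Msx3 in d28-30, and limma-voom called Msx2 alone. Over all genes DESeq2 called 113 in d9-20 and 90 in d28-30, and limma-voom called 24 and 22. EdgeR called 26 and 25, and the shares below are those of edgeR. In d9-20, 1 of 5 members passed an adjusted p of 0.05, lower than wt, where 0.0191% of all genes tested were called lower and 0.166% were called in either direction. In d28-30, again 1 of 5 members was called lower, against 0.0255% of all genes called lower and 0.159% in either direction. At an unadjusted p under 0.05, 3 of 5 members stood in each comparison, where 5.96% of all genes did so in d9-20 and 8.08% in d28-30. The libraries of Msx2, Msx3 and Lmx1a lay below all wt libraries without overlap in both comparisons, 3 of 5 members in each, where 5.17% of all genes did so in d9-20 and 6.17% in d28-30. Both comparisons use the same 3 wt libraries, so they are not independent of each other. With the replicate as a block, numbered by the titles and with the unnumbered title of each genotype taken as replicate 3, the fit of d9-20 against wt called 55 genes where the fit without it called 26, and Msx2 was called in both. In whole tissue, fewer cells of a type and less RNA per cell cannot be told apart.

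**Figure D1:**
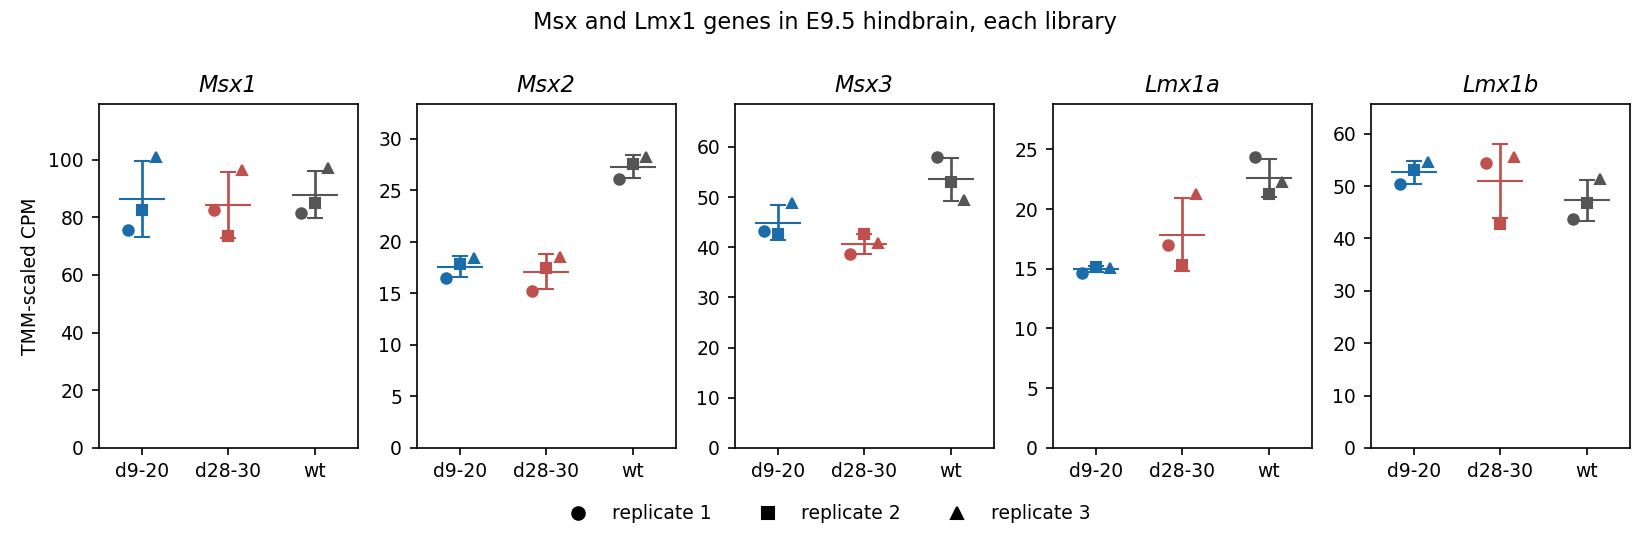
TMM-scaled CPM of Msx1, Msx2, Msx3, Lmx1a and Lmx1b (y axes from 0) in the 3 libraries of d9-20, d28-30 and wt, with points for libraries and bars for the mean and SD. Msx2 lies between 15.3 and 18.6 CPM in the 6 mutant libraries and between 26.1 and 28.3 CPM in wt, whereas the Msx1 points of the 3 genotypes overlap.

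Msx2, a BMP-induced homeodomain repressor of the dorsal midline, neural crest and facial tissues, had 16.4, 17.8 and 18.5 CPM in d9-20 and 15.3, 17.5 and 18.6 CPM in d28-30, against 26.1, 27.5 and 28.3 CPM in wt. Every mutant library was below every wt library, and the mutants overlapped each other. The means were 17.6 ± 1.03 CPM in d9-20, 17.1 ± 1.70 CPM in d28-30 and 27.3 ± 1.09 CPM in wt (SD, n = 3 each). Msx2 fell by 35.6% in d9-20 (log2 fold change -0.635 ± 0.098, SE, 95% interval -0.851 to -0.418, adjusted p = 0.036, edgeR quasi-likelihood). In d28-30 it fell by 37.2% (log2 fold change -0.671 ± 0.098, SE, 95% interval -0.887 to -0.454, adjusted p = 0.0226). The mean of both alleles against wt gave -0.653 ± 0.083 (SE, adjusted p = 0.00823), and 0.0828% of all genes tested were called lower in that contrast. The direction held in each of 19 other settings per allele, but the call was near the threshold. Among the fits that leave out 1 library, the d9-20 call remained only without d28-30 replicate 1 or 2, and the adjusted p was up to 0.215. The d28-30 call remained only without d9-20 replicate 3 or d28-30 replicate 2, with an adjusted p of up to 0.126. For the mean of both alleles it was lost without wt replicate 2 (adjusted p = 0.0601) or wt replicate 3 (adjusted p = 0.0604).

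The libraries also differed in Y-linked and erythroid RNA, so Msx2 is given beside both. Among the libraries with the most Y-linked RNA, Msx2 was at 18.5 CPM in d9-20 replicate 3 and at 18.6 CPM in d28-30 replicate 3, against 26.1 CPM in wt replicate 1 and 28.3 CPM in wt replicate 3. Almost no Y-linked RNA was found in d9-20 replicate 1 and d28-30 replicate 1. These had the lowest Msx2 of their genotypes, at 16.45 and 15.26 CPM, and no wt library was as low in Y-linked RNA. With the Y-linked level as a covariate the difference of Msx2 was -0.578 on the log2 scale in d9-20 (adjusted p = 0.0941) and -0.621 in d28-30 (adjusted p = 0.049). Markers of primitive erythroid cells summed to 3886 to 4462 CPM in d9-20 and to 4694 to 6778 CPM in d28-30, against 4394 to 8105 CPM in wt, and 12 of 12 had a log2 fold change below 0 in d9-20. By edgeR 9 of these were lower at an unadjusted p under 0.05 in d9-20 (median -0.571). In d28-30, 10 were below 0 (median -0.234) and 0 stood at that p. EdgeR and limma-voom called 0 against wt, and DESeq2 called Hbb-y, lower in d9-20. With the erythroid share as a covariate the difference of Msx2 was -0.681 in d9-20 (adjusted p = 0.202) and -0.685 in d28-30 (adjusted p = 0.0362). The mean of both alleles passed with either covariate (adjusted p = 0.0271 with the Y-linked level and 0.0381 with the erythroid share).

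Msx3, the Msx gene whose expression in mouse embryos is restricted to the dorsal neural tube, had 43.19, 42.64 and 48.85 CPM in d9-20 and 38.64, 42.55 and 40.84 CPM in d28-30, against 58.04, 53.09 and 49.5 CPM in wt. The mutants were all below wt, but the nearest libraries, d9-20 replicate 3 at 48.9 CPM and wt replicate 3 at 49.5 CPM, were close. The log2 fold change was -0.25 ± 0.09 (SE, adjusted p = 0.577) in d9-20 and -0.40 ± 0.09 (SE, adjusted p = 0.191) in d28-30, and neither passed. For the mean of both alleles it was -0.325 ± 0.075 (SE, adjusted p = 0.178). DESeq2 called Msx3 in d28-30 (adjusted p = 0.0222) and not in d9-20.

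Msx1, a BMP-responsive repressor of the dorsal neural tube, neural crest and facial mesenchyme, had 75.6, 82.4 and 101 CPM in d9-20 and 82.6, 73.6 and 96.3 CPM in d28-30, against 81.3, 85.1 and 97.2 CPM in wt. The genotypes overlapped throughout, and the highest library in each was replicate 3. The difference was -0.02 ± 0.13 on the log2 scale in d9-20 (SE, 95% interval -0.300 to 0.251, adjusted p = 1). In d28-30 it was -0.06 ± 0.13 (SE, 95% interval -0.338 to 0.214, adjusted p = 0.857). Changes of Msx1 within these intervals were not detectable with 3 libraries a group, and its spread between libraries was the widest of the members, with a biological coefficient of variation of 11.2% beside 8.43% for Msx2.

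**Figure D2:**
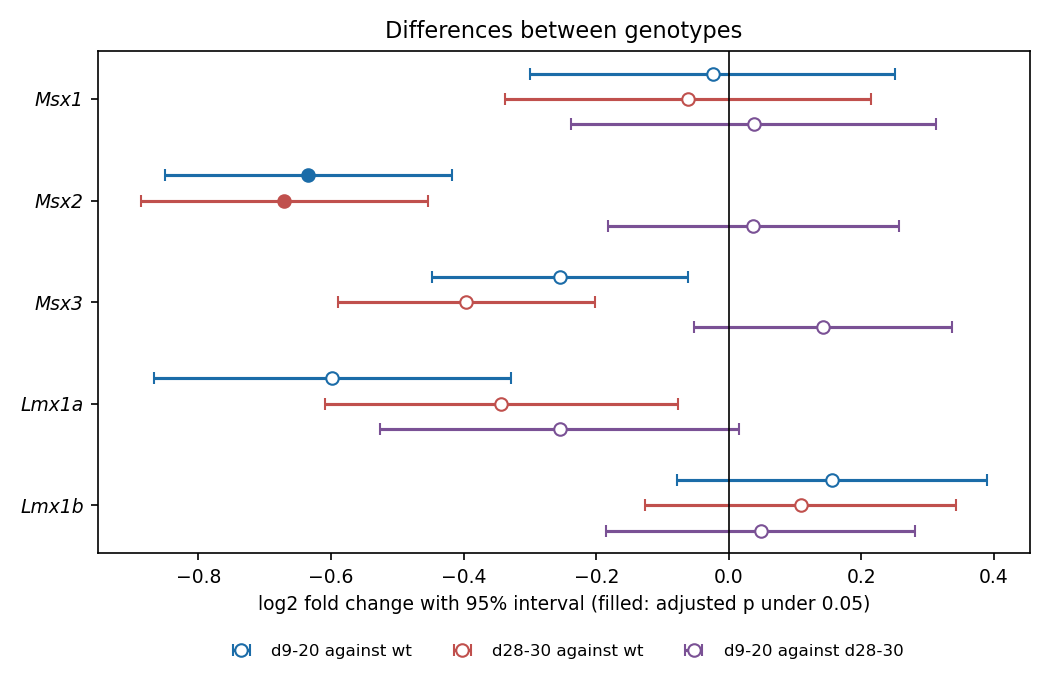
Log2 fold change with its 95% interval, filled where the adjusted p was under 0.05, for each member in d9-20 against wt, d28-30 against wt and d9-20 against d28-30. The Msx2 intervals run from -0.851 to -0.418 in d9-20 and from -0.887 to -0.454 in d28-30, while those of Msx1 and Lmx1b include 0 in every comparison.

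Ratios of reads within a library do not depend on the scaling between libraries. The Msx2 to Msx1 ratio was 0.183 to 0.218 in d9-20 and 0.185 to 0.238 in d28-30, against 0.291 to 0.323 in wt, with no overlap of either mutant and wt. For Msx3 to Msx1 it was 0.484 to 0.571 in d9-20 and 0.424 to 0.578 in d28-30, against 0.51 to 0.714 in wt, so that this ratio overlapped. The Msx2 to Msx3 ratio was 0.378 to 0.418 in d9-20 and 0.395 to 0.455 in d28-30, against 0.45 to 0.571 in wt, and only d28-30 overlapped wt. Msx2 was therefore lower relative to Msx1 in each mutant library than in each wt library, as a description with no test. How often other gene pairs separate so was not computed.

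**Figure D3:**
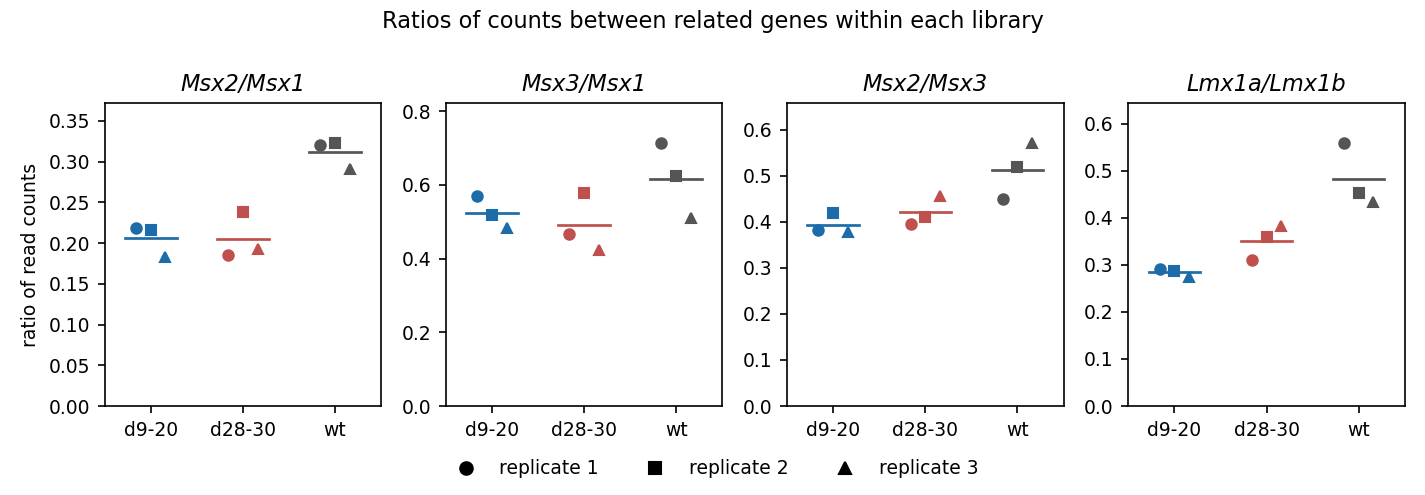
Ratio of read counts within each library for Msx2 to Msx1, Msx3 to Msx1, Msx2 to Msx3 and Lmx1a to Lmx1b, by genotype, with points for libraries and lines for the mean (y axes from 0). The Lmx1a to Lmx1b ratio lies between 0.275 and 0.382 in the mutants and between 0.434 and 0.559 in wt.

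Lmx1a, the LIM-homeodomain factor needed for roof plate formation, had 14.68, 15.14 and 15.05 CPM in d9-20 and 16.97, 15.32 and 21.24 CPM in d28-30, against 24.38, 21.25 and 22.26 CPM in wt. The d9-20 libraries were the lowest and lay close together, whereas d28-30 replicate 3, at 21.24 CPM, was just under wt replicate 2, at 21.25 CPM. The means were 14.96 ± 0.245 CPM in d9-20, 17.8 ± 3.05 CPM in d28-30 and 22.6 ± 1.60 CPM in wt (SD, n = 3 each). In d9-20 the difference was -0.60 ± 0.12 on the log2 scale (SE, 95% interval -0.867 to -0.328, 33.9% below wt, adjusted p = 0.112, edgeR quasi-likelihood), which did not pass. In d28-30 it was -0.34 ± 0.12 (SE, adjusted p = 0.535), and for the mean of both alleles -0.47 ± 0.10 (SE, adjusted p = 0.15), which passed without d28-30 replicate 3 (adjusted p = 0.0486). The d9-20 call depended on the setting: it passed when only d9-20 and wt were fitted (adjusted p = 0.0343), without d28-30 replicate 2 (adjusted p = 0.0306), without a filter on low counts (adjusted p = 0.013) and in DESeq2 (adjusted p = 0.00429). Over all its settings the d9-20 difference lay between -0.642 and -0.547. In the libraries with the most Y-linked RNA, Lmx1a was at 15.05 CPM in d9-20 replicate 3 and at 21.2 CPM in d28-30 replicate 3, against 24.4 CPM in wt replicate 1 and 22.3 CPM in wt replicate 3. In those with almost none, it was at 14.68 CPM in d9-20 replicate 1 and at 16.97 CPM in d28-30 replicate 1.

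**Figure D4:**
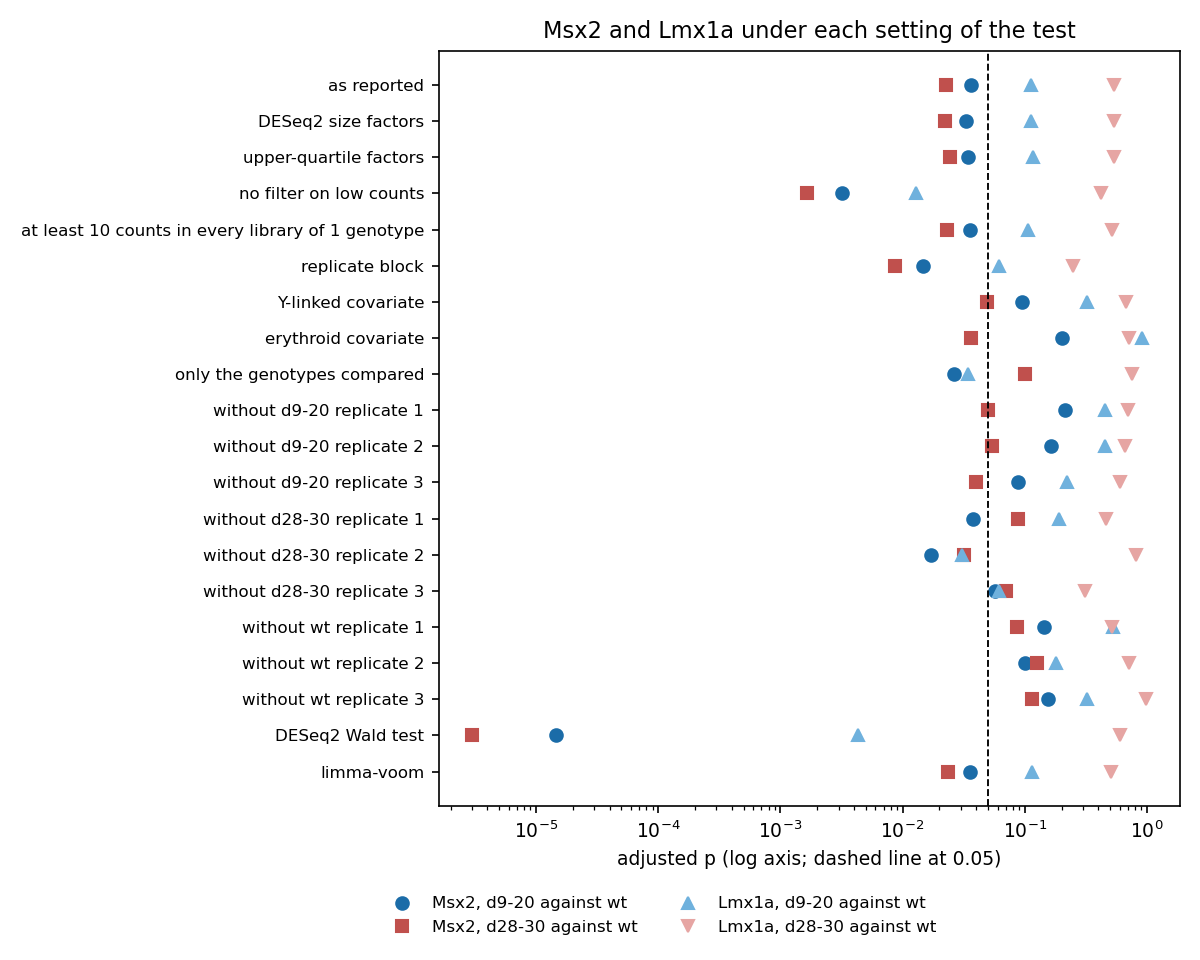
Adjusted p (log x axis, dashed line at 0.05) of Msx2 and Lmx1a in d9-20 against wt and d28-30 against wt, with 1 row for each setting of the test. Msx2 passes in 10 of 19 other settings in d9-20 and in 11 of 19 in d28-30, and Lmx1a passes in 4 in d9-20 and in 0 in d28-30.

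Lmx1b, the paralogue that also patterns the isthmus and specifies serotonergic neurons, had 50.3, 53.0 and 54.6 CPM in d9-20 and 54.5, 42.9 and 55.6 CPM in d28-30, against 43.6, 46.9 and 51.3 CPM in wt. All 3 genotypes overlapped, and the lowest d28-30 value belonged to replicate 2, the library that differed most from the others. The difference was 0.16 ± 0.11 on the log2 scale in d9-20 (SE, adjusted p = 1) and 0.11 ± 0.11 in d28-30 (SE, adjusted p = 0.704). The Lmx1a to Lmx1b ratio was 0.275 to 0.292 in d9-20 and 0.311 to 0.382 in d28-30, against 0.434 to 0.559 in wt, with no overlap between any of the 3 genotypes. This ratio was not tested, and how often other gene pairs separate so was not computed. Of all genes, 16.8% did not overlap between the alleles, where Lmx1a had an adjusted p of 0.535 by edgeR's quasi-likelihood test. The opposite-strand gene C130021I20Rik, chosen for mention once its values were known, begins 682 bases from the GENCODE start of Lmx1b. RefSeq places the Lmx1b start further upstream, at base 33641098, where C130021I20Rik begins at base 33641193. The Lmx1b window searched above, 33641149 to 33641348, therefore reaches into C130021I20Rik. C130021I20Rik had 49.4, 45.2 and 49.5 CPM in d9-20 and 60.4, 45.2 and 60.4 CPM in d28-30, against 36.6, 37.4 and 42.9 CPM in wt. The adjusted p was 0.698 in d9-20 and 0.203 in d28-30, so neither passed. The strand setting of the counting is not given in the sources used here, although the 2 genes do not overlap in the annotation.

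The alleles were also set against each other, which uses no wt library. In d9-20 against d28-30 edgeR called 0 of 15695 genes (0%), 9.58% were under an unadjusted p of 0.05, DESeq2 called 72 genes and limma-voom called 0. Among the members 0 of 5 were called, 0 were under an unadjusted p of 0.05, and DESeq2 and limma-voom called 0. Msx3 was higher and Lmx1a lower in d9-20 than in d28-30 without overlap of libraries, 1 of 5 members in each direction, where 16.8% of all genes did not overlap. The difference was 0.14 ± 0.09 on the log2 scale for Msx3 (SE, 95% interval -0.053 to 0.337, adjusted p = 0.58). For Lmx1a it was -0.255 ± 0.123 (SE, 95% interval -0.526 to 0.016, adjusted p = 0.535). For Msx2 it was 0.04 ± 0.10 (SE, 95% interval -0.183 to 0.256, adjusted p = 0.885). Differences between the alleles within these intervals remain compatible with the data, and larger ones could still miss the adjusted threshold. In the contrast of the mean of both alleles with wt, Msx2, Msx3 and Lmx1a lay below wt without overlap, 3 of 5 members, where 1.52% of all genes did so, 0.255% were called in either direction and 5.8% were under an unadjusted p of 0.05.

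Levels of different genes were compared per kilobase of exon length. Msx1 was highest, at 27.9 ± 4.24 CPM per kilobase in d9-20, 27.2 ± 3.69 in d28-30 and 28.4 ± 2.67 in wt (SD, n = 3 each), followed by Msx3 at 19.1 ± 1.46 in d9-20, 17.3 ± 0.831 in d28-30 and 22.7 ± 1.82 in wt. Lmx1b came next, at 10.8 ± 0.445 CPM per kilobase in d9-20, 10.4 ± 1.45 in d28-30 and 9.69 ± 0.79 in wt. Msx2 was at 5.36 ± 0.314 CPM per kilobase in d9-20, 5.22 ± 0.517 in d28-30 and 8.33 ± 0.332 in wt. Lmx1a was at 4.4 ± 0.0707 CPM per kilobase in d9-20, 5.25 ± 0.899 in d28-30 and 6.66 ± 0.471 in wt. Neighbours in this order did not overlap between libraries in d9-20 or in wt, whereas in d28-30 Msx2 at 4.65 to 5.67 and Lmx1a at 4.51 to 6.25 overlapped. Lmx1b was above Msx2 in all 3 genotypes by exon length, but with the longest transcript as the length Msx2 was above Lmx1b in wt, at 11.1 against 9.87 CPM per kilobase.

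The genes whose levels followed each member most closely over the 9 libraries were ranked by Pearson's r of log2 CPM, as a description, since all 9 points share the 3 genotypes and the same library scaling. The 3 genes given for each member were the highest of 12648 compared, so a high r follows from the selection. For Msx2 they were Tasp1 (r = 0.954), Gmnc (r = 0.947) and Rbm47 (r = 0.946). Gmnc, which encodes a regulator of multiciliated cells, averaged 0.621 ± 0.124 CPM in d9-20, 0.352 ± 0.101 CPM in d28-30 and 5.5 ± 2.04 CPM in wt (SD, n = 3 each). Its mutant levels lay near the 0.5 CPM added before log2. Gmnc was also among those closest to Msx3 (r = 0.934), after Morf4l1 (r = 0.948) and before Pccb (r = 0.919). For Lmx1a the closest were Tpd52l1 (r = 0.92), Ccdc114 (r = 0.904) and Emp3 (r = 0.902). Msx1 was followed by Ubald2 (r = 0.96), Nr2f6 (r = 0.944) and Irf2bpl (r = 0.943), and Lmx1b by Plekho2 (r = 0.946), Tmem205 (r = 0.944) and Obsl1 (r = 0.939). No gene was shared between the lists of Msx1, Lmx1a and Lmx1b, and Gmnc was shared by Msx2 and Msx3.

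A list of roof plate and dorsal midline genes, beside the 5 members, held 18 genes, made up of BMP and WNT ligands, R-spondins and the dorsal transcription factors of the Zic and Pax families, and all were tested. In d9-20, 12 of 18 had a log2 fold change below 0 (median -0.075, beside 0.003 over all genes tested). In d28-30 it was again 12 of 18 (median -0.043, beside 0.001). By edgeR's quasi-likelihood test 0 passed in either allele, where 4 were lower and 1 higher at an unadjusted p under 0.05 in d9-20 and 3 were lower and 1 higher in d28-30. The lower ones were Bmp6, Wnt1 and Rspo1 in both, with Zic4 in d9-20, and the higher one was Bmp5 in both, all named after their values were known. Bmp5, another BMP ligand, averaged 13.5 ± 2.14 CPM in d9-20, 12.8 ± 0.287 CPM in d28-30 and 9.83 ± 2.25 CPM in wt (SD, n = 3 each). With the replicate block, edgeR called Bmp6 and Rspo1 lower in d9-20 (adjusted p = 0.0391 for each). DESeq2 called Bmp6 in d9-20 and Bmp6 and Wnt1 in d28-30, and limma-voom called 0. In the mean of both alleles 15 of 18 were below 0 and edgeR called Bmp6 alone (log2 fold change -0.85 ± 0.15, SE, adjusted p = 0.0475), a call that remained, among the fits that leave out 1 library, only without d9-20 replicate 3 or d28-30 replicate 2 (adjusted p up to 0.238). It was also lost with the Y-linked covariate (adjusted p = 0.179), the erythroid covariate (adjusted p = 0.311), upper-quartile factors (adjusted p = 0.0531) and limma-voom (adjusted p = 0.0565), while DESeq2 called Bmp6, Wnt1 and Rspo1 in that contrast. Bmp6, a BMP ligand of the roof plate, had 3.34, 3.48 and 4.51 CPM in d9-20 and 4.3, 3.96 and 3.98 CPM in d28-30, against 6.84, 5.83 and 8.58 CPM in wt, so that every mutant library was lower. Wnt1, a signal of the dorsal midline and the isthmus, had 16.7, 19.8 and 15.6 CPM in d9-20 and 14.0, 8.71 and 12.7 CPM in d28-30, against 20.2, 27.7 and 26.8 CPM in wt, with adjusted p = 0.558 in d9-20 and adjusted p = 0.0527 in d28-30. Rspo1, which amplifies WNT signals, averaged 16.2 ± 4.82 CPM in d9-20, 15.2 ± 2.13 CPM in d28-30 and 25.1 ± 4.56 CPM in wt (SD, n = 3 each), with adjusted p = 0.499 in d9-20 and 0.368 in d28-30.

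**Figure D5:**
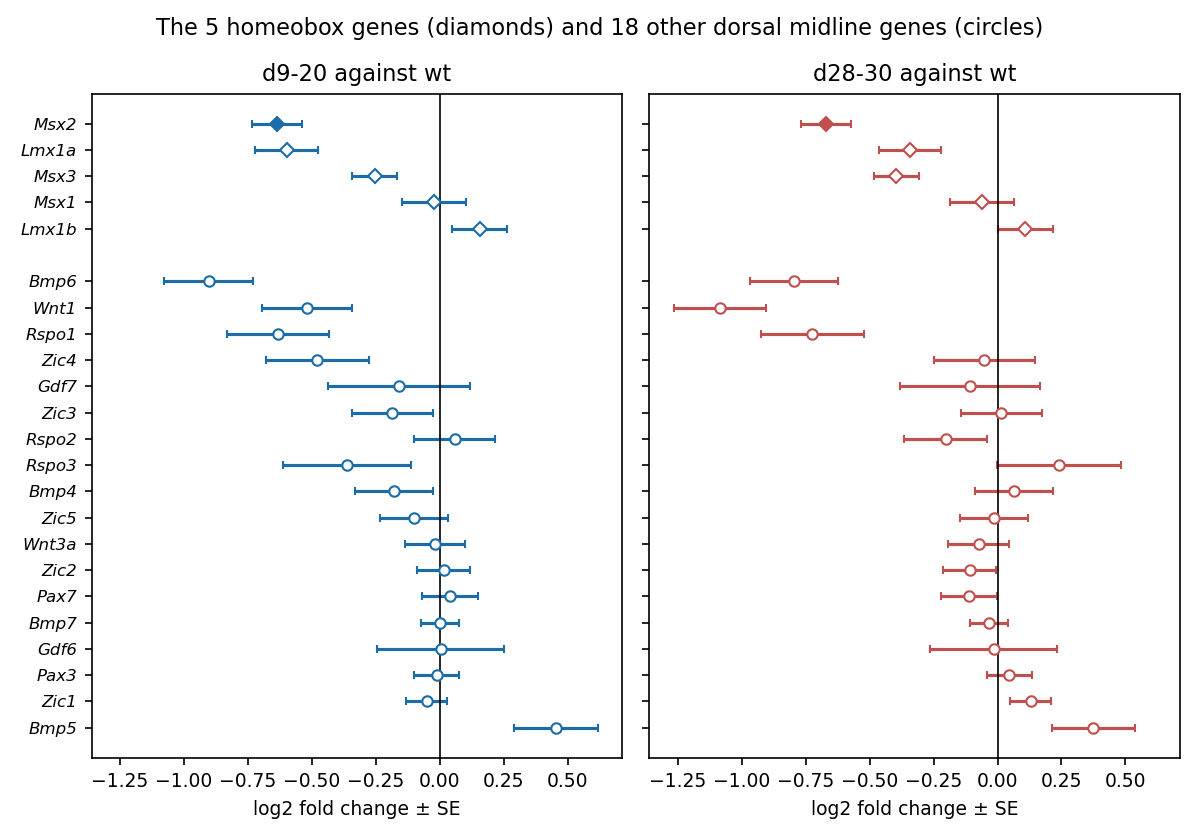
Log2 fold change with its SE for the 5 homeobox genes (diamonds) and the 18 roof plate genes (circles) in d9-20 against wt (left) and d28-30 against wt (right), filled where the adjusted p was under 0.05. Bmp6 is at -0.90 in d9-20 and -0.80 in d28-30, Wnt1 at -1.09 in d28-30, and most other genes lie near 0.

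BMP receptors, SMADs and BMP-induced genes were tested as well, since BMP signals induce the Msx genes. Smad6 and Smad7 were in both lists, so the counts below are not of separate genes. Of 12 BMP receptors and SMADs, 6 were below 0 in d9-20 (median 0.003) and 3 in d28-30 (median 0.11). By edgeR 0 passed in either allele, 0 in d9-20 and 1 in d28-30 had an unadjusted p under 0.05, and DESeq2 and limma-voom called 0. Of 11 BMP-induced targets, 9 were below 0 in d9-20 (median -0.12) and 7 in d28-30 (median -0.02), with 0 called by edgeR, DESeq2 and limma-voom and 1 at an unadjusted p under 0.05 in each. Id1, a helix-loop-helix inhibitor induced by BMP, had a log2 fold change of -0.44 ± 0.13 in d28-30 (SE, adjusted p = 0.399).

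The LIM-homeodomain cofactors and LIM-only proteins, which bind or compete for Lmx1 LIM domains, numbered 10, with medians of 0.004 in d9-20 and -0.02 in d28-30. By edgeR 0 passed, 1 in d9-20 and 0 in d28-30 had an unadjusted p under 0.05, and DESeq2 and limma-voom called 0. Of 10 other LIM-homeodomain factors, 7 were below 0 in d9-20 (median -0.146) and 1 in d28-30 (median 0.387), with 0 called by edgeR, DESeq2 and limma-voom and 0 in d9-20 and 1 in d28-30 at an unadjusted p under 0.05. Lmo4, a LIM-only protein, was at 0.24 ± 0.09 on the log2 scale in d9-20 (SE, adjusted p = 0.61). In the rhombic lip list 7 of 8 genes were tested, with medians of -0.57 in d9-20 and -0.04 in d28-30, and edgeR and limma-voom called 0, with 3 in d9-20 and 1 in d28-30 at an unadjusted p under 0.05. Olig3, a helix-loop-helix factor of dorsal progenitors next to the roof plate, was at -0.57 ± 0.12 in d9-20 (SE, adjusted p = 0.146) and -0.46 ± 0.12 in d28-30 (SE, adjusted p = 0.328), and DESeq2 called it in d9-20. Of 12 choroid plexus markers 8 were tested and Ttr, Kcne2 and Htr2c were at 0 in 3, 5 and 7 of the 9 libraries, with a highest value of 0.452 CPM for Ttr. EdgeR, DESeq2 and limma-voom called 0 choroid plexus markers against wt, with 1 at an unadjusted p under 0.05 in each mutant.

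Msx1 and Msx2 are also made outside the neural tube, so the levels of other tissues were set beside them. Summed markers of cranial and branchial arch mesenchyme were at 336 to 371 CPM in d9-20 and 339 to 370 CPM in d28-30, against 323 to 347 CPM in wt. Neural crest markers summed to 458 to 505 CPM in d9-20 and 398 to 415 CPM in d28-30, against 370 to 425 CPM in wt. The neural crest sums of d9-20 lay above those of wt without overlap, with 9 of 10 tested genes above 0 (median 0.259). Those of d28-30 overlapped wt. Surface ectoderm markers summed to 237 to 303 CPM in d9-20 and 220 to 229 CPM in d28-30, against 232 to 331 CPM in wt. The surface ectoderm sums of d28-30 lay below those of wt without overlap, with 9 of 10 tested genes below 0 (median -0.279), whereas those of d9-20 overlapped wt. By edgeR 0 genes of the 3 lists passed against wt, while DESeq2 called Foxc2 and Ngfr, both higher, in d9-20 and limma-voom called 0. At an unadjusted p under 0.05, 6 neural crest genes were higher in d9-20, and 1 was higher and 1 lower in d28-30. Of the mesenchyme genes 2 were higher and 1 lower in d9-20 and 1 was higher in d28-30, and of the surface ectoderm genes 0 stood there in d9-20 and 2 were lower in d28-30. The part of these cells in the Msx2 level was not tested. Isthmus and midbrain markers, of the region where Lmx1b is also active, summed to 423 to 429 CPM in d9-20 and 365 to 401 CPM in d28-30, against 344 to 436 CPM in wt. Newborn neuron markers summed to 420 to 686 CPM in d9-20 and 736 to 836 CPM in d28-30, against 507 to 802 CPM in wt. Of 10 newborn neuron genes, 10 were below 0 in d9-20 (median -0.379), with 4 at an unadjusted p under 0.05 by edgeR. In d28-30, 9 were above 0 (median 0.233), with 2 higher at that p. EdgeR, DESeq2 and limma-voom called 0 against wt, while DESeq2 called Map2 and Elavl4 lower in d9-20 than in d28-30.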

How the data were processed

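Total RNA of 9 hindbrain samples was sequenced from stranded TruSeq libraries as single reads of 75 nt, per the labels' protocols. The authors deposited whole-number counts per gene symbol, not normalized. The submitters' processing notes name STAR 2.5.3a, featureCounts, limma and the build mm10 (GRCm38). Not given in the sources used here are the annotation, the counting's strand setting and the handling of multi-mapping reads, so reads of paralogues could be split or lost. The table held 0 columns of no sample. In R 4.3.3, edgeR 4.0.16 was used as follows: filterByExpr removed genes with few counts, and libraries were scaled with TMM, fitted in 1 quasi-likelihood model of all 9 libraries with genotype as the factor, and adjusted by Benjamini-Hochberg over 15695 genes at a threshold of 0.05. DESeq2 1.42.0 and limma-voom (limma 3.58.1) served as alternatives, beside other scaling, filters, covariates and leaving out each library. CPM values are TMM-scaled, and a floor of 3 counts equals 0.124 to 0.177 CPM. Standard errors are the fold change divided by the square root of F. The code was tested on simulated data. The members and gene lists were chosen with earlier results of these data known. A further gene of the roof plate list is not reported here. The text names the members, Zfp423, up to 3 genes of a list past the threshold or otherwise up to 2 with the smallest p, though not all of these are printed, and the 3 genes most like each member (of those with a mean of at least 1 CPM, with 0.5 CPM added before log2). Also named, outside this rule, were Hoxb1, Zic4, Bmp5, Ttr, Kcne2, Htr2c, Smad7 and C130021I20Rik. Deviations of same-numbered libraries from their genotype means correlated at 0.116, 0.316 and 0.515 between d9-20 and wt. The main fit did not pair libraries, and the replicate number served as a block only in an alternative fit. The titles number 2 libraries of each genotype as 1 and 2, the unnumbered one of each was called replicate 3 here, and the labels do not say what a number marks. Promoter sequences were read from RefSeq (GRCm38.p6), in which all 5 members were found.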

Additional observations from a re-analysis of the deposited data

How the results depend on the processing

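The direction of Msx2, Msx3 and Lmx1a against wt was the same in every setting run, and the calls were less stable; causes were not tested. Msx2 in d9-20 lost its call with the Y-linked covariate (-0.578) and the erythroid covariate (-0.681), and ranged from -0.673 to -0.596 with single libraries left out. Msx2 in d28-30 lost it when only d28-30 and wt were fitted (-0.671), and ranged from -0.734 to -0.605; the mean of both alleles ranged from -0.688 to -0.62. Lmx1a in d9-20 gained a call without a filter (-0.604), with only the genotypes compared (-0.599) and in DESeq2 (-0.598), and ranged from -0.642 to -0.547. For the mean of both alleles Lmx1a gained one without a filter (-0.476), in DESeq2 (-0.47) and without d28-30 replicate 3 (-0.546), and ranged from -0.546 to -0.417. DESeq2 also called Msx3 in d28-30 (-0.396) and for the mean (-0.325). Msx1 changed sign in d9-20 with the Y-linked (0.025) and erythroid (0.063) covariates and for the mean of both alleles (0.008 and 0.013). With single libraries left out Msx1 ranged from -0.151 to 0.055 in d9-20, from -0.171 to 0.029 in d28-30, from -0.108 to 0.031 for the mean and from -0.084 to 0.141 between the alleles, where Msx2 ranged from -0.032 to 0.094 and Lmx1b from -0.067 to 0.112. Genes called in d9-20 (26) numbered 148 without a filter, 40 with only the genotypes compared, 13 with the Y-linked and 5 with the erythroid covariate, 113 in DESeq2, and 6 to 93 with single libraries left out. In d28-30 (25) they numbered 98, 12 with only the genotypes compared, 90 in DESeq2 and 10 to 33. Between the alleles (0) they numbered 133 without a filter, 72 in DESeq2 and 0 to 4. For the mean (40) they numbered 113 without a filter, 19 with the Y-linked and 24 with the erythroid covariate, 108 in DESeq2 and 14 to 75. The replicate block gave 55 genes in d9-20, 48 in d28-30, 2 between the alleles and 69 for the mean, and changed no call of a member; Msx2 had -0.636 (adjusted p = 0.0147) in d9-20 and -0.676 (adjusted p = 0.00862) in d28-30 under it. Of the roof plate list the block also called Rspo1 (adjusted p = 0.0245) and Wnt1 (adjusted p = 0.0445) in d28-30. Deviations of same-numbered libraries correlated at -0.265 to 0.355 between d28-30 and wt and at 0.063 to 0.315 between d9-20 and d28-30. For 5 of 9 libraries, the best-correlated library bore the same number in both of the other genotypes. With 3 libraries a group, the intervals of Msx1 and Lmx1b limit what could be seen, not their counts. Changes beyond these intervals could also miss the adjusted threshold.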
